A study of Mus musculus with 8 samples.

Results

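Replication timing was described along 37 very long mouse genes of neurons and of common fragile sites. The genes came from a list of gene symbols, and every scored 5 kb position inside their gene bodies on mm10 was used. They are 37 of 18942 protein-coding genes with a scored position, and their bodies hold 9678 of 514245 scored positions, or 1.88%. The genes lie on 15 chromosomes and are 371 kb (Cntn6) to 2271 kb (Ptprd) long, with a median of 1208 kb, and 29 of them reach 1 Mb. Their symbols name adhesion molecules, scaffolds, receptors, enzymes and regulators.

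The profiles came from mouse embryonic stem cells (labelled mESC), pluripotent cells of the early embryo kept in culture, in a study that depleted YY1, a DNA-binding regulator with zinc fingers that acts at promoters and enhancers. Cells were given BrdU, a base analogue that marks new DNA, for 2 h; the early and the late S phase cells were sorted apart, and labelled DNA of 40000 cells per fraction was pulled down and sequenced. The control group has no treatment in its labels. The dTAG group was collected 2 days after the dTAG compound, a small molecule that directs a protein carrying a degradation tag to the ubiquitin ligase machinery. The labels send the reader to an earlier publication for the cell line and the treatment, and do not say whether the control cells carry the tagged YY1 or received a solvent. YY1 itself is not measured by this assay, so its loss was not checked here. Each group has replicate numbers 1 and 2, and each profile joins an early and a late fraction, so 8 samples stand behind 4 profiles: control 1, control 2, dTAG 1 and dTAG 2.

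A cell copies its genome in a set order, in which stretches of megabase scale fire together early or late in S phase. Gene-rich, active chromatin is usually copied early, and gene-poor stretches that hold long tissue-specific genes are usually copied late. Common fragile sites are places where chromosomes break when replication is slowed, and many of them lie inside very long genes that have few origins and finish copying late.

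The deposited value is a signed timing score, and a higher score was read as earlier, since 95 of 97 ribosomal protein genes and 6 of 6 stem cell genes (Pou5f1, Nanog, Sox2, Zfp42, Dppa2 and Dppa4, at 2.56 to 4.08) lay above 0 in all 4 profiles. The unit of the score is not stated, so all values are in score units. Depth is unknown, since no counts are given with the scores. Replicate number 1 and replicate number 2 do not share a distribution: in sorted order control 1 and dTAG 1 matched to within 5.16e-05 and control 2 and dTAG 2 to within 0.000114, and one number's values were the other's with the sign turned. The mean of all scores was therefore 0.20 in both replicate 1 profiles and -0.20 in both replicate 2 profiles. Across all positions the profiles of one replicate number correlated at 0.993 (number 1) and 0.985 (number 2), against 0.970 between the controls and 0.969 between the dTAG profiles. The titles and the fraction labels of dTAG 1 contradict each other on which sample is early, but its profile correlated positively with the other 3. Nothing in the labels says that replicates came from separate cultures. A p-value here thus reflects only the spread among 4 profiles, with each gene's variance drawn towards that of all genes tested.

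The long genes were late. Averaged over the gene body, 33 of the 37 scored below 0 in all 4 profiles, or 89.2%, against 14.8% of all protein-coding genes, 71.1% of the 190 other genes of at least 500 kb and 86.0% of 43 other long neuronal and fragile-site genes. The median body mean of the 37 was -3.01 in control 1, -3.33 in control 2, -3.01 in dTAG 1 and -3.32 in dTAG 2. Over the 4 profiles that median was -3.20, beside 3.39 for all protein-coding genes and -2.25 for the other genes of at least 500 kb. In 15 of the 37 the body mean was below -3 in every profile, or 40.5%, against 2.91% of all genes and 26.8% of the other genes of at least 500 kb. Genes of like length were as late: of the 30 non-member genes of at least 1 Mb, 93.3% were below 0 and 43.3% below -3 in every profile, with a median of -3.28, and of the other long neuronal and fragile-site genes 41.9% were below -3. Every 5 kb position was below 0 in all 4 profiles in 19 of the 37. Most bodies were also later than what surrounds them. The body mean was below the mean of the 500 kb flanks in 32 genes, and over all 37 the median difference was -1.18. Flanks were measured for the members only, so this is not shown to be particular to them.

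**Figure D1:**
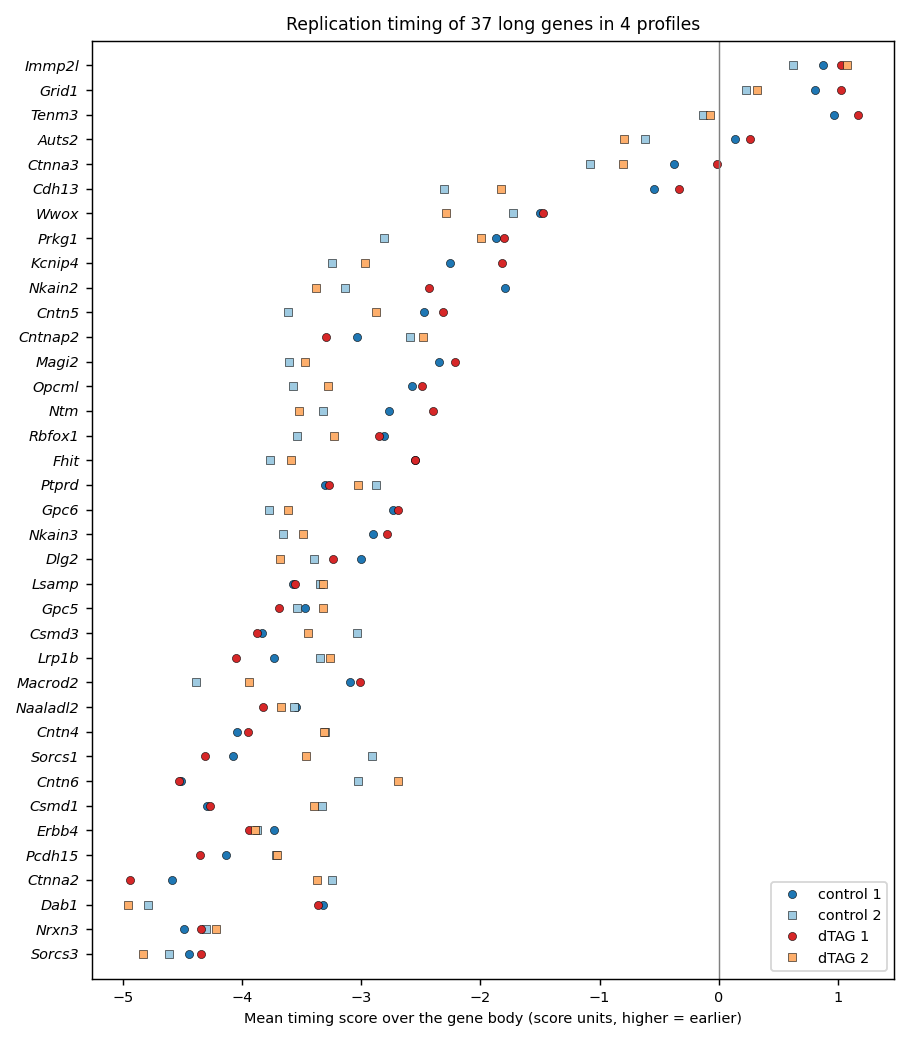
Mean timing score over the gene body (x axis, score units, higher is earlier) of the 37 long genes, 1 row per gene ordered by the mean of the 4 profiles; circles are replicate 1, squares replicate 2, blue control and red or orange dTAG. Of the 37 genes, 33 sit left of 0 in every profile, and in most rows circles and squares lie farther apart than blue and red.

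The neuronal surface adhesion genes form the largest group, with 12 members and body means, averaged over profiles, from -4.34 to 0.48 (median -3.06). Nrxn3 (chr12:88722701-90334935), a presynaptic neurexin that organises synapses, was among the latest. Its body mean was -4.49 in control 1, -4.30 in control 2, -4.35 in dTAG 1 and -4.22 in dTAG 2. It was late along all of its 1612 kb, with a range of 1.97 on average over the profiles: the 5′ end spanned -4.83 to -3.66 over the profiles, the midpoint -3.74 to -3.42 and the 3′ end -4.87 to -3.66. The groups overlapped at each of these places, and the slope was of opposite sign in the replicate numbers (-0.33 to 0.22 score units per Mb).

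Cntn6 (chr6:104492662-104863406), a contactin, or membrane-anchored immunoglobulin-type adhesion molecule of axons, is the shortest of the 37. It also had the smallest range of score within its body, 0.77, although a short body leaves less room for a range. Over the gene body the score was -4.52 in control 1, -3.03 in control 2, -4.53 in dTAG 1 and -2.70 in dTAG 2. Both replicate 2 profiles were higher, by 1.49 in control and 1.83 in dTAG, and the treatment groups overlapped. Its 5′ end lay at -4.26 to -2.62, its midpoint at -4.57 to -2.41 and its 3′ end at -4.98 to -2.82. Cntn4, its neighbour 814 kb away on chromosome 6, showed the same replicate pattern, with a body mean of -4.05 in control 1, -3.30 in control 2, -3.95 in dTAG 1 and -3.31 in dTAG 2.

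Cntn5 (chr9:9634223-10904775), a contactin of sensory circuits, was less late. The body mean stood at -2.47 in control 1, -3.61 in control 2, -2.31 in dTAG 1 and -2.88 in dTAG 2. Each dTAG profile was above the control of its number, but dTAG 2 lay below control 1, so the groups overlapped. Its 5′ end spanned -4.35 to -2.88, its midpoint -2.98 to -2.03 and its 3′ end -2.24 to -0.97, and its slope towards higher coordinates was 0.03 to 1.27 per Mb.

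Cntnap2 (chr6:45060061-47301393), a neurexin relative that helps gather potassium channels along axons, had the widest range of score of the 37, at 8.03. Averaged over the gene, it scored -3.04 in control 1, -2.59 in control 2, -3.29 in dTAG 1 and -2.48 in dTAG 2. The 5′ end was late, at -4.60 in control 1, -2.64 in control 2, -4.91 in dTAG 1 and -2.47 in dTAG 2, and the 3′ end was early, at 3.05 in control 1, 2.59 in control 2, 2.99 in dTAG 1 and 3.0 in dTAG 2. Most of this gene is thus late, with 87.3% of its positions below 0 on average over the profiles, and the rise lies in the last part of the gene. Its midpoint spanned -3.89 to -3.07 and its slope 0.91 to 2.53 per Mb.

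Tenm3 (chr8:48225665-49522824), a teneurin that matches pre- and postsynaptic partners, was one of the few early members. The whole body averaged 0.96 in control 1, -0.14 in control 2, 1.17 in dTAG 1 and -0.07 in dTAG 2. Replicate 1 lay above 0 and replicate 2 just below it in both groups. The 5′ end was late (-4.91 to -3.11), while the midpoint (1.53 to 2.98) and the 3′ end (2.14 to 3.18) were early, which made it one of the steepest members, with slopes of -5.69 to -4.31 per Mb towards higher coordinates, where its 5′ end lies.

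Cdh13 (chr8:118140017-119324929) encodes T-cadherin, a cadherin held to the membrane by a lipid anchor. As a body mean it gave -0.54 in control 1, -2.31 in control 2, -0.34 in dTAG 1 and -1.82 in dTAG 2. It had the largest gap between replicate numbers in the controls, -1.76, and its groups overlapped. The low-coordinate end was late (-4.48 to -2.32), the midpoint spanned -2.22 to 0.06 and the high-coordinate end was early (2.09 to 2.92), with slopes of 3.72 to 5.17 per Mb.

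Opcml and Ntm lie 69.3 kb apart on chromosome 9 and, like Lsamp, encode IgLON proteins, small lipid-anchored adhesion molecules of neurons. Ntm (chr9:28994749-29963269) was one of only 2 members whose middle was earlier than both ends in all 4 profiles (the other was Lrp1b). Its body mean was -2.77 in control 1, -3.32 in control 2, -2.40 in dTAG 1 and -3.52 in dTAG 2, with a midpoint at -1.35 to -0.57, a 5′ end at -4.91 to -3.01 and a 3′ end at -4.76 to -3.94. Opcml had a body mean of -2.57 in control 1, -3.58 in control 2, -2.49 in dTAG 1 and -3.28 in dTAG 2. In both genes replicate 2 lay below replicate 1, and the treatment groups overlapped.

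Lsamp rose from a 5′ end at -5.65 to -3.24 to a 3′ end at -0.55 to 0.58, and its body mean was -3.57 in control 1, -3.34 in control 2, -3.56 in dTAG 1 and -3.32 in dTAG 2. Ptprd, a receptor phosphatase that organises synapses and the longest member, had a body mean of -3.30 in control 1, -2.88 in control 2, -3.27 in dTAG 1 and -3.03 in dTAG 2. Pcdh15, a protocadherin of the tip links of hair cells, had one of -4.13 in control 1, -3.71 in control 2, -4.35 in dTAG 1 and -3.71 in dTAG 2. All 3 were late throughout most of their length and overlapped between groups.

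All 4 catenins and scaffolds had body means below 0 in every profile, and the group held the largest ranges within single genes after Cntnap2. Ctnna2 (chr6:76881637-77979815) encodes the neuronal alpha-catenin, which ties cadherins to actin. Over the gene body the score was -4.58 in control 1, -3.25 in control 2, -4.94 in dTAG 1 and -3.37 in dTAG 2. Replicate 2 was higher by 1.34 in control and 1.57 in dTAG, and the treatment groups overlapped. It was late from end to end, with a 5′ end at -4.88 to -3.0, a midpoint at -5.07 to -3.18, a 3′ end at -4.25 to -3.53 and slopes of -0.09 to 1.25 per Mb.

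Ctnna3 (chr10:63430098-65003667), an alpha-catenin known from heart and testis, was the only one of the 4 with a body mean above -1 over the profiles. The body mean stood at -0.37 in control 1, -1.08 in control 2, -0.01 in dTAG 1 and -0.80 in dTAG 2. The 5′ end was early, at 3.51 in control 1, 3.26 in control 2, 3.52 in dTAG 1 and 3.65 in dTAG 2, the midpoint late (-4.37 to -2.77) and the 3′ end near 0 (-0.85 to 0.49). A single slope describes such a trough poorly (0.15 to 0.95 per Mb), and the range within the gene was 7.73.

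Dlg2 (chr7:90476188-92449246), a membrane-associated guanylate kinase scaffold of the postsynapse, was a late gene between early borders. Averaged over the gene, it scored -3.01 in control 1, -3.40 in control 2, -3.23 in dTAG 1 and -3.68 in dTAG 2. The 5′ end lay at 1.72 in control 1, 0.88 in control 2, 0.89 in dTAG 1 and 0.28 in dTAG 2, and the 3′ end at 0.73 to 1.27. Its midpoint was far below both, at -4.94 to -3.94, and no other member lay as far below its flanks (-6.36). Slopes were near 0 (-0.67 to 0.12 per Mb), since both ends were early.

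Magi2 (chr5:19219387-20704792), another scaffold of that family, had a body mean of -2.35 in control 1, -3.61 in control 2, -2.22 in dTAG 1 and -3.47 in dTAG 2. Its 5′ end was late (-3.93 to -2.41), its midpoint later still (-4.79 to -3.27) and its 3′ end early (1.75 to 2.67). The slope was almost the same in all 4 profiles, at 2.92 to 3.19 per Mb, although the replicate numbers differed by -1.26 in body mean in both groups.

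Among the 7 receptors and large surface proteins, 6 were late and Grid1 was early. Grid1 (chr14:34820003-35583387), a glutamate receptor-related protein that bridges synapses, had a body mean of 0.81 in control 1, 0.23 in control 2, 1.02 in dTAG 1 and 0.32 in dTAG 2. Its low-coordinate end was on average the earliest gene end among the 37 (3.50 to 3.96), and it had the steepest slope, -6.58 to -5.74 per Mb. From there the score fell to a midpoint of -1.33 to 0.01 and rose a little to the high-coordinate end (-0.08 to 0.69).

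The sorting receptors Sorcs3 and Sorcs1, which steer cargo between membranes, lie 1338 kb apart on chromosome 19. Sorcs3 (chr19:48206025-48805505) was the latest of the 37, at the 3.39th percentile of all scored positions on average over the profiles. The whole body averaged -4.44 in control 1, -4.61 in control 2, -4.35 in dTAG 1 and -4.83 in dTAG 2. Both ends (-4.45 to -2.67 at the 5′ end, -4.40 to -4.05 at the 3′ end) and the midpoint (-4.93 to -4.37) were late. Sorcs1 (chr19:50143295-50679129) had a body mean of -4.07 in control 1, -2.91 in control 2, -4.31 in dTAG 1 and -3.47 in dTAG 2. Its 5′ end lay at -5.02 to -3.17, its midpoint at -4.41 to -2.71 and its 3′ end at -3.71 to -3.22. In both genes the slope was negative in replicate 1 and positive in replicate 2, in control and dTAG alike (-3.72 to 2.55 and -2.95 to 1.42 per Mb), so no direction along the gene can be given.

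Lrp1b (chr2:40595290-42653598), a giant endocytic receptor of the LDL receptor family and a known fragile-site gene in human cells, had a body mean of -3.73 in control 1, -3.35 in control 2, -4.05 in dTAG 1 and -3.26 in dTAG 2. Both of its ends were later (-4.60 to -4.17 and -4.63 to -3.80) than its midpoint (-3.75 to -2.41), and its slope was near 0 (-0.90 to 0.29 per Mb). Csmd1, a large protein with CUB and Sushi domains that dampens complement, had a body mean of -4.29 in control 1, -3.33 in control 2, -4.27 in dTAG 1 and -3.40 in dTAG 2, and its relative Csmd3 one of -3.83 in control 1, -3.03 in control 2, -3.87 in dTAG 1 and -3.45 in dTAG 2. In these 3 genes replicate 2 was the earlier number in both groups. Erbb4, a neuregulin receptor, had a body mean of -3.73 in control 1, -3.87 in control 2, -3.94 in dTAG 1 and -3.89 in dTAG 2, with both dTAG profiles just below both controls.

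The glypicans Gpc5 and Gpc6, cell surface carriers of heparan sulfate, lie 400 kb apart on chromosome 14. Gpc5 had a body mean of -3.47 in control 1, -3.54 in control 2, -3.69 in dTAG 1 and -3.32 in dTAG 2 and Gpc6 one of -2.73 in control 1, -3.77 in control 2, -2.69 in dTAG 1 and -3.62 in dTAG 2. Gpc5 fell from its 5′ end (-2.46 to -1.27) to its 3′ end (-4.07 to -3.78). Gpc6 was late in its middle (-5.53 to -4.05) and near 0 at its high-coordinate end (0.03 to 0.61).

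The enzymes and tumour suppressors of fragile sites ranged from late to early. Fhit (chr14:9550092-11162061) encodes a hydrolase of diadenosine polyphosphates, and its human counterpart spans one of the most often broken fragile sites. As a body mean it gave -2.55 in control 1, -3.77 in control 2, -2.55 in dTAG 1 and -3.59 in dTAG 2. The 5′ end (-2.63 to -0.77) and the 3′ end (-3.09 to -1.78) were earlier than the midpoint (-4.23 to -3.03) in every profile, and the slope was near 0 (-0.10 to 0.60 per Mb). Replicate 2 was lower by -1.22 in control and -1.04 in dTAG, while the groups differed by less.

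Wwox (chr8:114439635-115352712), a WW domain oxidoreductase whose human gene spans another frequent fragile site, was less late than Fhit. Its body mean was -1.5 in control 1, -1.73 in control 2, -1.47 in dTAG 1 and -2.29 in dTAG 2. It fell steadily from the low-coordinate end (-0.62 to 0.06) through the midpoint (-1.86 to -1.07) to the high-coordinate end (-4.72 to -2.46), with slopes of -4.71 to -1.88 per Mb. In dTAG 2 the body was -0.56 from control 2, whereas dTAG 1 and control 1 differed by 0.02.

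Macrod2 (chr2:140395303-142392966) removes ADP-ribose from proteins. Over the gene body the score was -3.09 in control 1, -4.39 in control 2, -3.01 in dTAG 1 and -3.94 in dTAG 2. The 5′ end was near 0 (-0.46 to 0.79), the midpoint late (-5.15 to -3.12) and the 3′ end in between (-2.19 to -1.75), with slopes of -1.47 to -0.55 per Mb. Naaladl2, a relative of the glutamate carboxypeptidases, had a body mean of -3.54 in control 1, -3.56 in control 2, -3.83 in dTAG 1 and -3.67 in dTAG 2, and both dTAG profiles lay below both controls.

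Immp2l (chr12:41024061-41955588), a peptidase of the inner mitochondrial membrane, was the earliest of the 37, at the 56.9th percentile of positions on average. The body mean stood at 0.88 in control 1, 0.62 in control 2, 1.02 in dTAG 1 and 1.07 in dTAG 2. It was the only member in which both dTAG profiles lay above both controls. The 5′ end was early (1.97 to 2.53), the midpoint less so (0.62 to 1.17), and the 3′ end just below 0 (-0.88 to -0.40), with slopes of -1.73 to -1.0 per Mb.

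The last group of 7 holds signalling proteins, channel partners and regulators. Dab1 (chr4:103619500-104744844), the adaptor that carries the reelin signal in migrating neurons, was late throughout. Averaged over the gene, it scored -3.32 in control 1, -4.79 in control 2, -3.36 in dTAG 1 and -4.95 in dTAG 2. Replicate 2 was more than 1 unit lower in both groups. The 5′ end spanned -4.46 to -2.66, the midpoint -5.44 to -3.86 and the 3′ end -2.73 to -1.53, with slopes of 0.72 to 1.55 per Mb, while both flanks were above 0 (0.44 and 1.70).

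Prkg1 (chr19:30564487-31765268), the kinase that responds to cGMP, had a body mean of -1.87 in control 1, -2.81 in control 2, -1.80 in dTAG 1 and -2.0 in dTAG 2. The earliest stretch lay near its midpoint (-0.47 to 0.30), with the 5′ end at -2.47 to -1.53, the 3′ end at -1.69 to 0.23 and slopes of -2.38 to -1.40 per Mb. Its groups overlapped, as dTAG 2 lay below control 1.

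Auts2 (chr5:131437333-132543220), a regulator of transcription found with Polycomb proteins, straddled 0. The whole body averaged 0.13 in control 1, -0.62 in control 2, 0.27 in dTAG 1 and -0.80 in dTAG 2, positive in replicate 1 and negative in replicate 2. The score fell from the low-coordinate end (1.75 to 2.59) to the midpoint (-1.69 to -0.5), and the high-coordinate end was near 0 (-0.73 to 0.41). Slopes were alike in the 4 profiles (-5.01 to -4.37 per Mb).

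Kcnip4 (chr5:48389503-49525122), a calcium-binding partner of A-type potassium channels, had a late 5′ end (-5.31 to -3.58) and a 3′ end near 0 (-0.91 to 0.68). As a body mean it gave -2.26 in control 1, -3.25 in control 2, -1.82 in dTAG 1 and -2.97 in dTAG 2. The midpoint was late (-4.51 to -2.64), and the slope was the second steepest of the 37 (-5.74 to -4.76 per Mb). Within each replicate number dTAG was higher, but the groups overlapped.

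Nkain2 (chr10:31689310-32897174) and Nkain3 (chr4:20111029-20780709) encode partners of the sodium-potassium pump. Nkain2 had a body mean of -1.79 in control 1, -3.13 in control 2, -2.43 in dTAG 1 and -3.38 in dTAG 2, a 5′ end at -1.98 to -0.20, a midpoint at -4.50 to -2.55, a 3′ end at -2.63 to -1.58 and slopes of 2.06 to 3.04 per Mb. Nkain3 had a body mean of -2.90 in control 1, -3.66 in control 2, -2.78 in dTAG 1 and -3.49 in dTAG 2, with a low-coordinate end at -1.54 to -1.18, a midpoint at -3.74 to -2.89 and a high-coordinate end at -4.76 to -3.26. Both were late with 1 end closer to 0, and neither separated the groups. Rbfox1, a splicing regulator of neurons and muscle, had a body mean of -2.81 in control 1, -3.54 in control 2, -2.85 in dTAG 1 and -3.23 in dTAG 2, rising from a 5′ end at -5.35 to -3.85 to a 3′ end at 0.44 to 1.33.

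**Figure D2:**
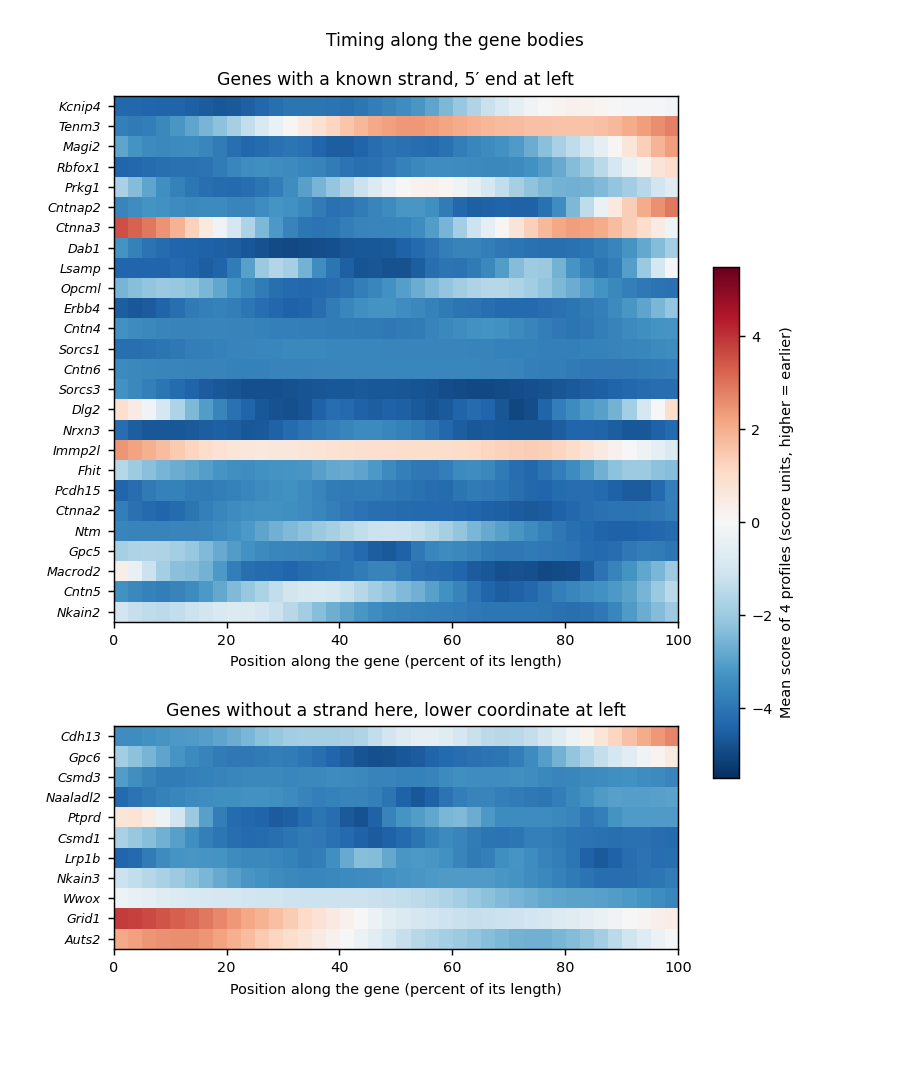
Mean score of the 4 profiles (colour, score units, red is early and blue late) in 40 equal bins along each gene (x axis, percent of gene length), 1 row per gene; the upper panel holds the 26 genes with a strand, 5′ end at left, and the lower panel the 11 without one, lower coordinate at left. Blue fills most rows, and red is mainly at single ends, as at the 3′ ends of Cntnap2, Magi2 and Rbfox1 and the 5′ end of Ctnna3.

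Seen along the gene, the earliest position was at the edge for most members. It lay within 10% of the gene length from either end in 26 of the 37. The latest position lay between 25% and 75% of the gene length in 19, a window that covers as much of a gene as the rest. These places were not counted in other genes, so neither count is shown to be particular to the members. Both 50 kb ends were above 0 on average in 2 genes, 1 end in 11 and neither in 24. In the 190 other genes of at least 500 kb these counts were 35, 64 and 91. In the 43 other long neuronal and fragile-site genes they were 2, 15 and 26, so 1 early end is not particular to the members. The middle was below both ends in all 4 profiles in 11 genes (Dab1, Magi2, Macrod2, Dlg2, Ctnna3, Auts2, Fhit, Grid1, Gpc6, Sorcs3 and Nkain2), or 29.7%, close to the 25.8% of other genes of at least 500 kb. The range of score within a body had a median of 3.40, beside 3.20 in the other genes of that length. It was above 5 in 14 members and below 2.5 in 9.

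The gradient was counted as stable where the least squares slope had the same sign in all 4 profiles. This held in 22 of the 37, or 59.5%, with 11 rising and 11 falling towards higher coordinates, against 73.7% of the other genes of at least 500 kb. The members are longer than those genes, and their median slope was smaller in size, 0.96 against 3.15 units per Mb. In the 30 other genes of at least 1 Mb the median slope was 1.16. Of the 37, 8 had slopes above 3 in size, led by Grid1 (mean -6.12), Kcnip4 (-5.34), Tenm3 (-4.86) and Auts2 (-4.75), and 19 had slopes under 1.

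**Figure D3:**
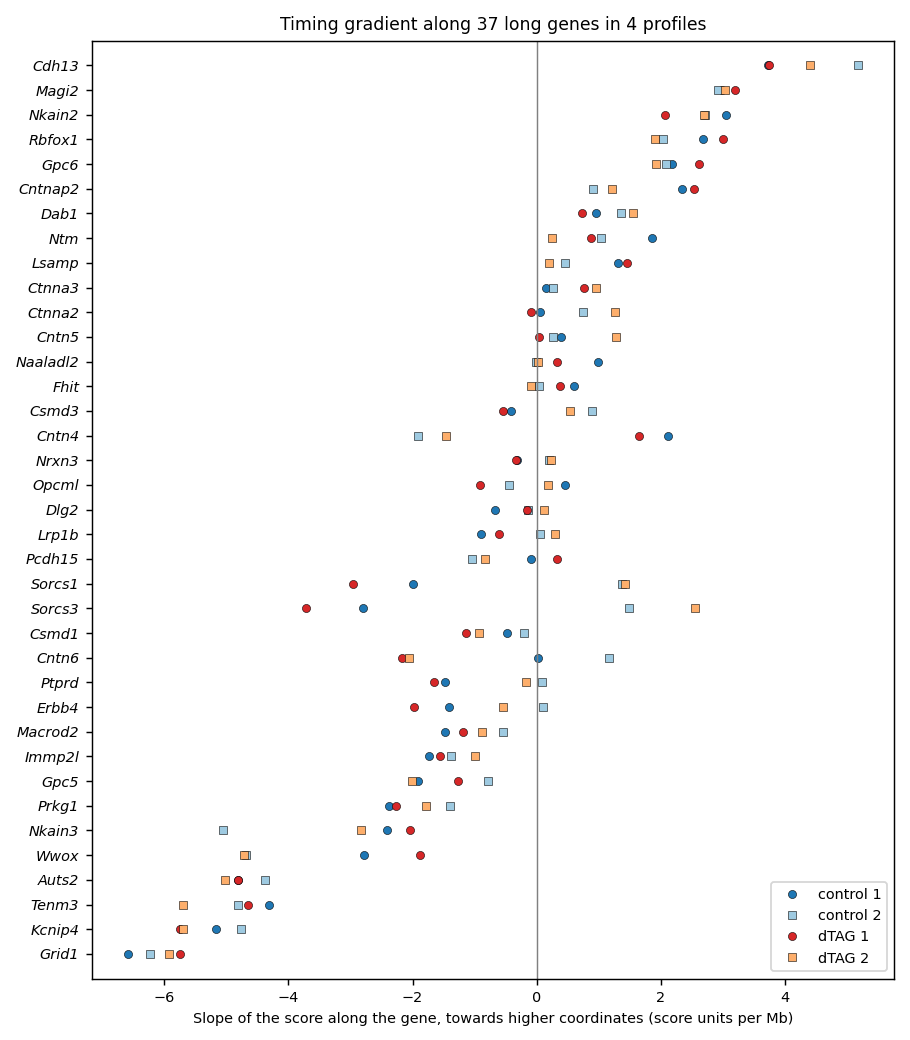
Slope of the score along each of the 37 genes (x axis, score units per Mb towards higher coordinates), 1 row per gene; circles are replicate 1, squares replicate 2, blue control and red or orange dTAG. Slopes keep their sign in all 4 profiles in 22 rows, and in Sorcs1, Sorcs3 and Cntn4 circles and squares fall on opposite sides of 0.

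With the strand of 26 members known from RefSeq, the 3′ end was the earlier one in all profiles in 10, or 38.5%, the 5′ end in 8, or 30.8%, and the order varied between profiles in 8. Among 154 other genes of at least 500 kb with a strand the shares were 46.1% and 36.4%. The median 5′ end scored -3.50 and the median 3′ end -2.11, beside -2.43 and -1.38 in those other genes. Taken within each gene, the median of the 3′ end minus the 5′ end was only 0.11 in the members and 0.27 in the other genes. In Cntnap2, Tenm3, Rbfox1 and Magi2 the promoter end was thus late and the far end early, whereas Ctnna3, Immp2l, Macrod2 and Gpc5 had their earlier end at the promoter. Promoters of RefSeq (GRCm38.p6, the assembly behind mm10), 300 bases around each gene's start, were found for 26 members, 44 promoters in all. The letters ATGGCG, the core of the consensus that YY1 binds, occurred on either strand in 1 of the 44, against 8.93% of all 32851 promoters. That match is a description of letters and not a binding site. The one promoter that holds it, that of the late Ctnna2 (chr6:77979618-77979917, minus strand), is shown with the match in capitals (read here as the reverse complement, CGCCAT), together with that of Ctnna3 (chr10:63429848-63430147, plus strand), the earliest 5′ end with a strand, and that of Rbfox1 (chr16:5884543-5884842, plus strand), one of the late ones.
Ctnna2: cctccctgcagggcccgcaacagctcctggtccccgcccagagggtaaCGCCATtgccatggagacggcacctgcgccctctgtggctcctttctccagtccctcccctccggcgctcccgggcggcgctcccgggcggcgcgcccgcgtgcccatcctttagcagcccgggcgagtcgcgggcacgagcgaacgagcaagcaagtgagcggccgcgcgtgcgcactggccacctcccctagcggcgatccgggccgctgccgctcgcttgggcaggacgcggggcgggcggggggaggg
Ctnna3: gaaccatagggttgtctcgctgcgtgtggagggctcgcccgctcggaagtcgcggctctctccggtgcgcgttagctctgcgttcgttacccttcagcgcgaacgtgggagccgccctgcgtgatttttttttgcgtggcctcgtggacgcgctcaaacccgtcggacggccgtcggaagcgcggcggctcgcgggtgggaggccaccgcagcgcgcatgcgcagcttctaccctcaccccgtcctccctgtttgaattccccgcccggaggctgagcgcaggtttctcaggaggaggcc
Rbfox1: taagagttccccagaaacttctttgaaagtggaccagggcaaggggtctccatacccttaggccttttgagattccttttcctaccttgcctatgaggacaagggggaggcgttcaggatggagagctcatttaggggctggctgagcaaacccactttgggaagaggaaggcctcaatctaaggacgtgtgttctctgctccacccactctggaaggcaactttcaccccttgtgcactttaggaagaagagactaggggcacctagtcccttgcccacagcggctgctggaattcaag
The Ctnna2 promoter shown has 38 CG pairs and that of Ctnna3 39, against 3 in the one shown for Rbfox1. The median was 10 over the 44 and 7 over all promoters. For Ctnna3 and Rbfox1 the promoter at the lowest coordinate was taken, so the contrast holds for these sequences only. A promoter rich in CG pairs stood at an early end in Ctnna3 and at a late one in Ctnna2.

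The comparison between groups asks whether loss of YY1 moved the timing of these genes, and it was made within each replicate number and across groups. Over the gene body, 16 members were higher (earlier) after dTAG in both replicate numbers, or 43.2%, where the share among all protein-coding genes was 24.3%. Lower in both were 8 members, or 21.6%, where the share among all genes was 31.3%, and in 13 members the replicate numbers went opposite ways. In the 190 other genes of at least 500 kb 28.9% were higher and 37.9% lower in both. Among the 43 other long neuronal and fragile-site genes 44.2% were higher and 30.2% lower in both, and among the 30 non-member genes of at least 1 Mb 36.7% and 33.3%. The sizes were small: the median difference was 0.03 in replicate 1 and 0.08 in replicate 2, beside 0.01 and -0.08 over all genes. The median size of the difference between groups was 0.14, against 0.73 between replicate numbers. No member passed limma, fitted without a block on all 18942 genes, and neither did any other gene (0% called at an adjusted p of 0.05, smallest adjusted p 1, 131 genes and 0 members at an unadjusted p below 0.05). At the midpoint, tested over 21519 genes, none passed limma either, with 171 genes and 0 members at an unadjusted p below 0.05. Without a block the offset between replicate numbers counts as spread within each group. A group difference much smaller than that offset could hardly pass, so these fits do not show that timing was unchanged. With the replicate number as a block, 1383 genes and 0 members had an unadjusted p below 0.05 for the body mean in limma, and none passed.

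By role, the adhesion genes were higher in both replicate numbers in 6 of 12 and lower in both in 0. The catenins and scaffolds split into 2 and 2. Of the 7 receptors and large surface proteins 1 was higher and 3 were lower, of the 5 fragile-site enzymes 3 were higher and 1 was lower, and of the last group of 7, 3 were higher and 2 were lower. One glypican, Gpc6, was higher in both. None of these counts rests on a gene that passed the test. In a fit with the replicate number as a block and a trended, robust variance, 2.38% of all genes passed for the body mean and 2.59% for the midpoint, and 0 members in either.

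Of the members with the same direction in both replicate numbers, Cntn5 had the highest mean difference between groups, at 0.45 ± 0.5 (SE, 2 profiles per group). Each SE given here is limma's without a block. Its variance is drawn towards that of all genes tested, so it is not the plain SE of the profiles shown. Within the numbers the Cntn5 difference was 0.16 in replicate 1 and 0.74 in replicate 2. Prkg1 followed with 0.07 in replicate 1 and 0.81 in replicate 2, Kcnip4 with 0.44 in replicate 1 and 0.28 in replicate 2 and Cdh13 with 0.21 in replicate 1 and 0.48 in replicate 2. In all 4 the controls of the replicate numbers lay farther apart than that (0.94 to 1.76 in size), and the direction between group means turned when single profiles were left out.

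The lowest was Nkain2, at -0.44 ± 0.60 (SE, 2 profiles per group), with -0.64 in replicate 1 and -0.25 in replicate 2. Sorcs1 had -0.23 in replicate 1 and -0.56 in replicate 2, Dlg2 -0.23 in replicate 1 and -0.28 in replicate 2 and Ctnna2 -0.36 in replicate 1 and -0.12 in replicate 2. Their body means after dTAG overlapped those of the controls in each case. Control and dTAG body means did not overlap in 3 members: dTAG was above in Immp2l (all genes 9.04%) and below in Erbb4 and Naaladl2 (all genes 8.63%), not more than these genome-wide shares.

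**Figure D4:**
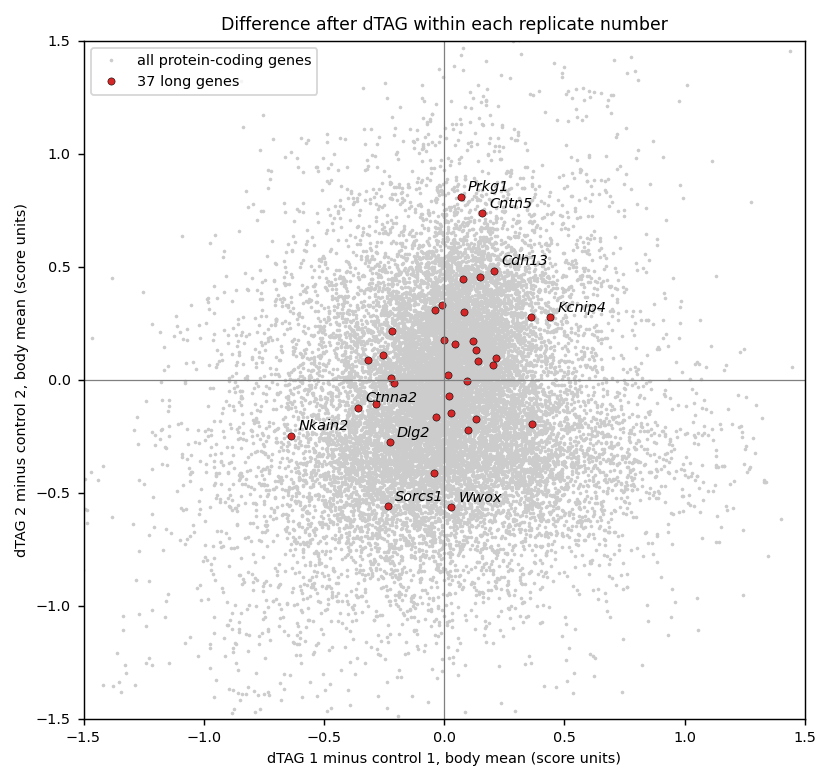
Difference in body mean after dTAG in replicate 1 (x axis) and replicate 2 (y axis), in score units; grey points are all protein-coding genes, of which 110 lie outside the plotted range, and red points the 37 long genes, with the larger differences named. Of the 37, 16 lie above 0 on both axes and 8 below 0 on both, and most sit near the middle of the grey cloud.

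The gradient changed little in most members. It was higher after dTAG in both replicate numbers in 9 (all genes of at least 200 kb 27%) and lower in both in 11 (28.4%). Cntn6 had the largest change that kept its direction: its slope was 0.02 in control 1, 1.16 in control 2, -2.17 in dTAG 1 and -2.06 in dTAG 2 units per Mb. Both dTAG slopes lay below both control slopes, by -2.19 in replicate 1 and -3.22 in replicate 2, a mean of -2.70 ± 0.91 (SE, 2 profiles per group). No other member reached an unadjusted p below 0.05 for the slope in limma (all 989 genes 3.54%), and Cntn6 did not pass after adjustment (adjusted p = 0.998). The gene spans only 370.7 kb with a range of 0.77, so this slope rests on small differences between its ends. It is also shorter than the 400 kb named in the title of the smoothed table, which limits any reading of its shape.

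Nkain3 had slopes of -2.41 in control 1, -5.05 in control 2, -2.04 in dTAG 1 and -2.84 in dTAG 2, flatter after dTAG by 0.37 in replicate 1 and 2.21 in replicate 2. Ntm went from 1.86 in control 1, 1.03 in control 2, 0.87 in dTAG 1 and 0.24 in dTAG 2, a change of -0.99 in replicate 1 and -0.79 in replicate 2. Kcnip4 steepened from -5.17 to -5.74 in replicate 1 and from -4.76 to -5.70 in replicate 2. In Kcnip4 and Ntm, as in Cntn6, both dTAG slopes lay below both controls, and none of these changes passed limma. These genes were picked for the size of their change. The share of all genes whose slopes do not overlap was not counted.

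The middle of the gene against its ends gave the most members at an unadjusted p below 0.05: 5 of 37, where 2.83% of all 989 genes reached it and none passed after adjustment (limma, adjusted p = 0.998 for each of the 5). Relative to its ends the middle was higher after dTAG in Kcnip4 (0.64 ± 0.17 (SE, 2 profiles per group)), Ntm (0.86 ± 0.26 (SE, 2 profiles per group)) and Cntn6 (0.48 ± 0.15 (SE, 2 profiles per group)). It was lower in Lsamp (-0.56 ± 0.16 (SE, 2 profiles per group)) and Sorcs1 (-0.5 ± 0.14 (SE, 2 profiles per group)). Over all members the middle was relatively higher in both replicate numbers in 7 (all genes 29.9%) and relatively lower in 14 (23.9%).

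At the ends themselves no member passed limma without a block (989 genes, 0% called, 17 genes and 0 members at an unadjusted p below 0.05 at either end). The low-coordinate end was higher after dTAG in both replicate numbers in 15 members (all genes 30.2%) and lower in 5 (35.5%). The high-coordinate end was higher in 12 (30.3%) and lower in 12 (36.6%). The largest change that kept its direction was at the low-coordinate end of Csmd1, at -2.57 in control 1, -2.17 in control 2, -1.79 in dTAG 1 and -0.82 in dTAG 2. Both dTAG profiles were earlier than both controls there, by 0.78 in replicate 1 and 1.35 in replicate 2, a mean of 1.06 ± 0.46 (SE, 2 profiles per group). The 5′ end of Dlg2, given above, went the other way, by -0.82 in replicate 1 and -0.60 in replicate 2, although dTAG 1 and control 2 were level there. At the 3′ end of Ctnna3 the score was -0.28 in control 1, -0.85 in control 2, 0.49 in dTAG 1 and 0.10 in dTAG 2. Both dTAG profiles lay above 0 and both controls below it, a change of 0.77 in replicate 1 and 0.95 in replicate 2. The share of all genes whose ends do not overlap between groups was not counted.

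When replicate numbers were blocked in limma, it called Csmd1 and Dlg2 at the low-coordinate end, 2 of 37 members where 6.27% of all 989 genes passed, and 0 members at the high-coordinate end, where 0.303% passed. A trended, robust variance added Tenm3 at the low-coordinate end (all genes 12.6%) and Ctnna3 at the high-coordinate end (5.06%). These shares of members are near or below those of all genes. The size of each change rested in part on single profiles. The Dlg2 change was -0.29 without control 1, -0.40 without dTAG 2 and -1.13 without control 2, and the Csmd1 change was 0.58 without dTAG 2. That of Tenm3 was 0.14 without control 2, 0.24 without dTAG 1 and 0.80 without control 1, and that of Ctnna3 was 0.57 without control 2.

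Single positions rarely moved beyond the spread of the replicate numbers. Positions where both dTAG profiles lay at least 0.5 below both controls numbered 13 in the members, or 0.134%, beside 1.1% of all positions, and positions at least 0.5 above both numbered 0, beside 0.548%. Of the 13, 12 formed 1 stretch in Csmd1 (chr8:17380000-17435000), where the mean was -3.76 in control 1, -3.71 in control 2, -4.43 in dTAG 1 and -4.46 in dTAG 2. The other was in Naaladl2. The size of the difference between replicate numbers at a position had a median of 0.85 in the members and 0.54 over all positions.

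Compared within each replicate number, more positions moved. At least 0.5 earlier in both numbers were 317 member positions, or 3.28%, against 2.29% of all positions, and at least 0.5 later were 211, or 2.18%, against 3.31%. Inside the other genes of at least 500 kb these shares were 2.30% and 4.62%. The member positions formed 23 stretches, 14 earlier and 9 later, in 16 of the 37 genes. In 21 genes there was none. Of the 11 stretches that spanned 100 kb or more, 6 were earlier and 5 later, in 9 genes. Neighbouring positions share reads through the smoothing, so a stretch is 1 observation and not many. The rule was chosen after seeing the data, and each stretch was cut by it. A change of at least 0.5 in the same direction in both numbers therefore follows from the rule in every stretch.

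The longest was in Dlg2, later over 365 kb from its 5′ end (chr7:90480000-90840000), where the mean score was -0.24 in control 1, -1.12 in control 2, -1.15 in dTAG 1 and -2.10 in dTAG 2. The change was -0.91 and -0.97 in the replicate numbers. Ctnna3 had 2 earlier stretches, of 340 kb (chr10:64340000-64675000) and 195 kb at its 3′ end (chr10:64810000-65000000). In the first the means were -0.12 in control 1, -0.75 in control 2, 0.63 in dTAG 1 and 0.02 in dTAG 2. The mean was thus below 0 in both controls and above 0 in both dTAG profiles, though barely so in dTAG 2. The stretch was cut out by the size of its change, so these means depend on where its borders fell.

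Kcnip4 was earlier over 235 kb in the 3′ part of the gene (chr5:48645000-48875000), by 0.76 and 0.75, with means of -0.92 in control 1, -2.13 in control 2, -0.16 in dTAG 1 and -1.37 in dTAG 2. Csmd1 moved in opposite directions at its ends. Over 115 kb at its low-coordinate end (chr8:15895000-16005000) it was earlier, by 0.69 and 1.13, and over 115 kb near its high-coordinate end (chr8:17340000-17450000) later, by -0.63 and -0.71. The others of 100 kb or more were a later stretch of 155 kb in Lsamp, an earlier one of 135 kb in Macrod2, later ones of 110 kb in Sorcs1 and 100 kb in Naaladl2, and an earlier one of 100 kb in Nrxn3. The longest stretches of Dlg2, Kcnip4 and Ctnna3 lay on the slopes between earlier and later parts of the gene. Shorter earlier stretches of 90 kb and 40 kb in Kcnip4 lay in flatter parts.

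**Figure D5:**
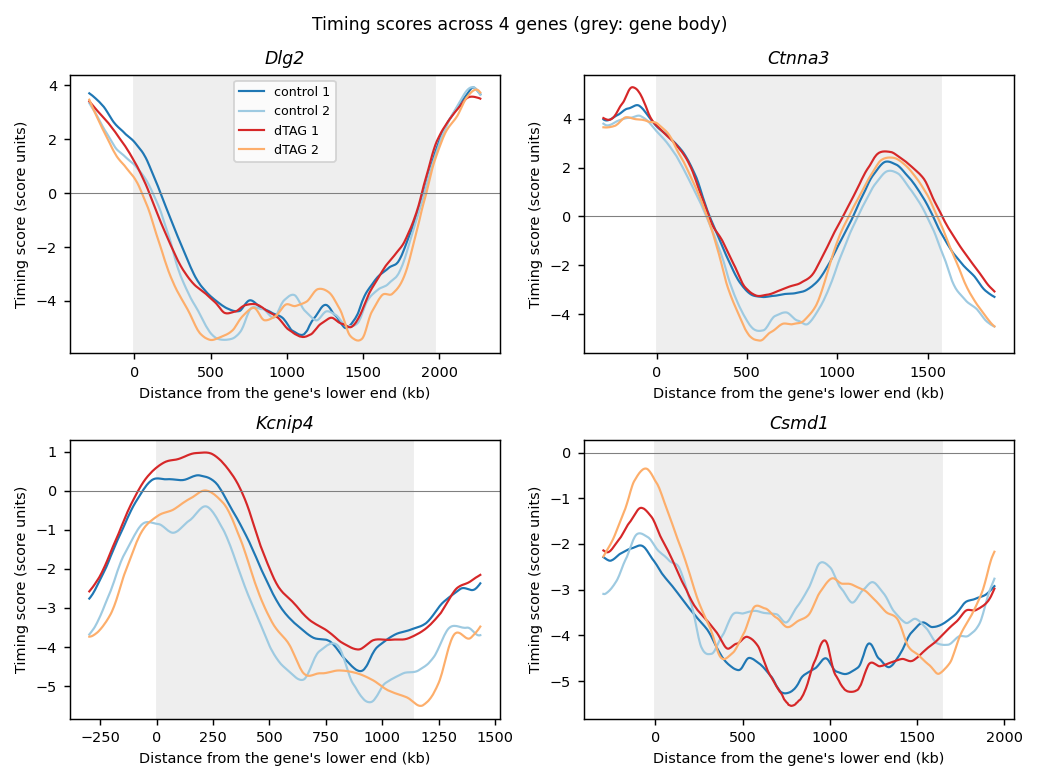
Timing score (y axis, score units, higher is earlier) against distance from the lower end of the gene (x axis, kb) for Dlg2, Ctnna3, Kcnip4 and Csmd1, with the gene body shaded; dark and light blue are control 1 and 2, red and orange dTAG 1 and 2. After dTAG the red and orange lines fall below the blue line of the same number at the start of Dlg2 and rise above it in the right part of Ctnna3 and the left part of Kcnip4.

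The replicate numbers differed in these genes in both directions. Replicate 2 was lower than replicate 1 in both groups in 21 members, or 21 of 37, against 72.7% of all protein-coding genes, and higher in both groups in 12, against 9.94%. The higher ones included Cntn6, Ctnna2, Sorcs1, Csmd1, Csmd3, Cntn4 and Cntnap2. The largest gaps downward were in Cdh13, Dab1, Nkain2, Macrod2 and Magi2, at -1.76 to -1.26 in the controls.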

How the data were processed

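Repli-seq compares newly made DNA of early and late S phase. Per the file headers, the authors deposited 1 timing score per 5 kb position for each of 4 profiles, smoothed by Loess and quantile normalized; 400 kb stands in the name of the deposited table, and the formula, log base and direction of the score are not stated. Bowtie2, SAMtools, bedtools and mm10 are named per the submitters' processing notes, with no version given in the sources used. All differences are in score units.

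Of 526745 positions, 514245 (97.6%) had all 4 scores and were used. Gene positions came from RefSeq (GRCm38.p6) and strands from its promoters. Per gene, the body mean, the midpoint position, the outer 50 kb at each end, the middle 50 kb and the least squares slope were computed, the last 4 in genes of at least 200 kb. The group difference was tested in limma 3.58.1 (R 4.3.3; moderated statistics, 2-sided, no other term), fitted on all genes with Benjamini-Hochberg adjustment and a threshold of 0.05. Features were computed in Python 3.11.15. Alternatives were a replicate block, a trended and robust variance, one common distribution, each profile left out, other windows and other thresholds. The members and lists were chosen with earlier results of these data known. Full values were given for the 4 highest and lowest members by body mean, the 4 with the steepest slope, the widest range, the highest and lowest difference of constant sign, the largest change of slope of constant sign, and 6 fragile-site genes. No read depth is known, so no counting error can be given.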

Additional observations from a re-analysis of the deposited data

How the results depend on the processing

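Without a block no gene passed limma for any of the 6 measures, and no gene passed either with a common distribution, the median over the body, a minimum length of 200 or 500 kb, the end-to-end slope and windows of 100 kb. The labels give both groups replicate numbers 1 and 2 but do not say what a number marks; deviations of same-numbered profiles correlated at 0.762 over all positions and 0.935 over the member body means. With the replicate block, 62 of 989 genes passed at the low-coordinate end (6.27%) and 3 at the high-coordinate end (0.303%), and none for the other 4 measures; among the members only the low-coordinate ends of Csmd1 (1.06 higher, adjusted p = 0.00921) and Dlg2 (-0.71, adjusted p = 0.0494) passed. With the replicate block and a trended, robust variance, 451 genes passed for the body mean, 558 for the midpoint, 125 for the low-coordinate end and 50 for the high-coordinate end, with 0 members in the first 2, Dlg2, Csmd1 and Tenm3 in the third and Ctnna3 in the last. Leaving out 1 profile at a time gave 0 to 11 genes for the body mean, 0 to 5 for the midpoint and 0 to 2 for the high-coordinate end. The count of members below 0 in every profile was 33 with a common distribution and with any profile left out, 32 by the midpoint, and 31 at a threshold of -1. Shifted member positions numbered 13 at a threshold of 0.5, 322 at 0.25, 0 at 1, 157 with a common distribution, 431 to 1911 with 1 profile left out, and 528 when the threshold was applied within both replicate numbers, a setting chosen after seeing the data.

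The difference in body mean between group means changed sign when 1 profile was left out in 32 of the 37 members, the exceptions being Dlg2, Erbb4, Immp2l, Naaladl2 and Nrxn3. Among those named for their differences it ran from -0.12 to 1.02 in Cntn5, -0.030 to 0.91 in Prkg1, -0.22 to 0.93 in Kcnip4, -0.54 to 1.23 in Cdh13, -1.11 to 0.23 in Nkain2, -0.98 to 0.19 in Sorcs1 and -1.03 to 0.54 in Ctnna2. The change of slope in Nkain3 ran from -0.034 to 2.61. The end changes kept their sign, at -1.13 to -0.29 in Dlg2, 0.58 to 1.55 in Csmd1, 0.14 to 0.80 in Tenm3 and 0.57 to 1.15 in Ctnna3. Each such setting leaves 1 group with a single replicate number, so the offset between the numbers enters the difference. No read depth is given, so no limit from depth could be set.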

Other observations

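The 43 other long neuronal and fragile-site genes that are not among the 37 had a median body mean of -2.92 over the profiles. Lowest were Kcnd2, an A-type potassium channel subunit, at -4.47, Dcc, the netrin receptor, at -4.33, and Thsd7b at -4.32. Highest were Tenm4, a teneurin, at 2.66, Ryr2, the calcium release channel of heart muscle, at 1.57, and Exoc4, a subunit of the exocyst, at 1.48.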
